A study of Mus musculus with 12 samples.

Results

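Aminoacyl-tRNA synthetases are the enzymes that load each amino acid onto its transfer RNA, and 38 of their genes were followed here in maturing mouse red cell precursors deprived of zinc, iron or protoporphyrin. The genes were taken by name. Every row of the expression tables with a symbol made of 1 capital letter and "ars", with or without a final 1 or 2, was included, together with Farsa, Farsb, Eprs and Tarsl2. This gave 38 of 55487 rows, 21 for cytosolic enzymes, Tarsl2 among them, and 17 (the other symbols ending in 2) for mitochondrial enzymes. All 38 reached the expression filter (at least 1 TPM, a length-scaled share of a library's transcripts, in at least 3 libraries) that left 11917 genes to be tested, so no member was lost to low values. The cells were G1E-ER4, a mouse erythroid progenitor line without a working Gata1 gene of its own into which GATA1 fused to the ligand-binding part of an estrogen receptor was placed, and estradiol sets off its maturation. All 4 groups, control included, received 100 nM β-estradiol and were harvested at 24 h, with 3 biological replicates each. Cells of the low zinc group were given 50 µM DTPA, a metal chelator; those of the low iron group 50 µM DFO, an iron chelator; and those of the low protoporphyrin IX group 0.2 mM SA, which blocks the heme pathway enzyme ALAD; control cells were given none of these. The sample titles name SA for the ALAD group whereas the protocol text names DFO for it, and the titles were followed. All cells are of 1 line, and DTPA binds metals other than zinc.

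Each synthetase recognises 1 amino acid and its transfer RNAs, activates the amino acid with ATP and joins it to the RNA end. Cytosol and mitochondria hold separate translation systems, and most amino acids have a separate nuclear gene for each, whereas Gars and Kars each supply both compartments from 1 gene. The cytosolic enzymes fall into a class I and a class II catalytic fold, several of them sit in a multi-synthetase complex, and many of their genes are textbook targets of ATF4, the transcription factor of the integrated stress response, which binds C/EBP-ATF response elements. In red cell precursors that response is started by the heme-regulated kinase HRI (gene Eif2ak1) when heme is short and by GCN2 (gene Eif2ak4) when uncharged transfer RNA builds up. Several class I and class II enzymes also bind zinc.

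Depth recovered from the spacing of low values ran between 19864289 and 24338639 gene reads. A single read on 1 kb of exon equalled 0.124 to 0.160 TPM. The least sequenced member, Ears2, therefore rested on 33 to 60 reads per library, and Lars2, the most sequenced, on 26147 to 69577. All 12 erythroid markers examined were at 1 TPM or more in every group. Their summed level was 46260 to 55870 TPM with DTPA, 32050 to 32930 TPM with DFO, 26670 to 28630 TPM with SA and 42170 to 47350 TPM in control. The 8 megakaryocyte markers summed to 36.6 to 45.8 TPM with DTPA, 10.3 to 10.9 TPM with DFO, 8.27 to 9.87 TPM with SA and 8.23 to 9.34 TPM in control, with 2 of the 8, Ppbp among them, at 0 in every group. Mast and myeloid markers summed to at most 0.606 TPM and lymphoid markers to at most 2.04 TPM in any library. The part of these shifts in the synthetase differences was not tested.

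Promoter sequences are shown first because a stress response motif was found in part of the cytosolic set. The motif TGATGNAA, the core of the C/EBP-ATF response element, was searched on both strands from 250 bases before to 50 bases after the annotated start, in RefSeq promoters of the GRCm38.p6 build. A promoter was held for 28 of the 38 genes. The motif was present in 5 of 14 cytosolic genes (35.7%), namely Aars, Gars, Iars, Tars and Yars, and in 0 of 14 mitochondrial genes. Among all genes with a promoter it was present in 1219 of 27025 (4.51%). Aars, Gars and Tars are shown because their match lies before the start site. Capitals mark the match, which reads on the minus strand of the promoter in each, and positions count the start base as 0.
Aars, chr8:111033690-111033777, plus strand, match at -112: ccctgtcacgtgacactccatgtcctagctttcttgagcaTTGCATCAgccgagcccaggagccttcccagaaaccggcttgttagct
Gars, chr6:55037931-55038000, plus strand, match at -30: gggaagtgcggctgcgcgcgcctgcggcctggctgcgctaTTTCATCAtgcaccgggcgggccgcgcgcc
Tars, chr15:11399659-11399713, minus strand, match at -15: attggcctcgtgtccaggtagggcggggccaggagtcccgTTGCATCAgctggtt

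In Iars and Yars the match lay just past the start base, and 30 bases around it are shown for comparison. Aars held a further match at 9.
Iars, chr13:49682126-49682155, plus strand, match at 7: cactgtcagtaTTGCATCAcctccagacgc
Yars, chr4:129189895-129189924, plus strand, match at 3: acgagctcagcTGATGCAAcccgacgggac

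Sars and Qars had no match in their windows, and the 100 bases before their start sites are given because Sars had the largest rise with SA while Qars moved the other way.
Sars, chr3:108445260-108445359, minus strand: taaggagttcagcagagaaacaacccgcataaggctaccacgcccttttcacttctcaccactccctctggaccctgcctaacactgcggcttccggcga
Qars, chr9:108507905-108508004, plus strand: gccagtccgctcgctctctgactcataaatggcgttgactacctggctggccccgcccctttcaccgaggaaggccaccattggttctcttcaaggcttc

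The palindrome CACGTG, an E-box that MYC and related factors bind, was present in 4 of the 14 cytosolic genes (Aars, Farsb, Iars and Tars), in 1 of the 14 mitochondrial genes (Ears2) and in 8.09% of all genes with a promoter. It is seen in lower case near the left end of the Aars sequence. A match says only that the letters are there.

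Cytosolic genes were the more strongly expressed set. In control cells their median level was 100 TPM, against 11.3 TPM for the mitochondrial genes, and 18 of the 21 cytosolic genes but 1 of the 17 mitochondrial genes (Lars2) reached 50 TPM. Aars, for the alanine enzyme, was highest at 273 ± 6.07 TPM (mean ± SD, n = 3) and did not differ beyond its spread from Hars, for the histidine enzyme, at 268 ± 13.5 TPM. Next came Nars (asparagine) at 184 ± 3.75 TPM and Wars (tryptophan) at 180 ± 5.48 TPM, whose ranges overlapped. Cars (cysteine) at 21.5 ± 0.555 TPM and Tarsl2, a paralog of the threonine enzyme, at 11.8 ± 1.18 TPM were lowest. Summed over the 21 cytosolic genes, the libraries held 1664, 1689 and 1672 TPM with DTPA, 2524, 2522 and 2479 TPM with DFO, 2699, 2718 and 2725 TPM with SA, and 2476, 2363 and 2444 TPM in control. Thus all DTPA libraries lay below, and all SA and DFO libraries above, the control range. The 16 mitochondrial genes other than Lars2 summed to 168, 171 and 166 TPM with DTPA, 196, 197 and 194 TPM with DFO, 197, 194 and 195 TPM with SA, and 188, 186 and 186 TPM in control. Here too the DTPA libraries lay below, and the DFO and SA libraries above, the control range. Only part of this held when each library was divided by its median-of-ratios factor, which sets the typical gene level. The cytosolic sums were then 1820 to 1845 with DTPA, 2391 to 2431 with DFO, 2590 to 2610 with SA and 2382 to 2438 in control, so that DTPA stayed below and SA above while DFO overlapped control. The mitochondrial sums, at 181 to 186 with DTPA, 186 to 190.0 with DFO, 186 to 189.5 with SA and 185 to 187 in control, overlapped control in all 3 treatments.

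**Figure D1:**
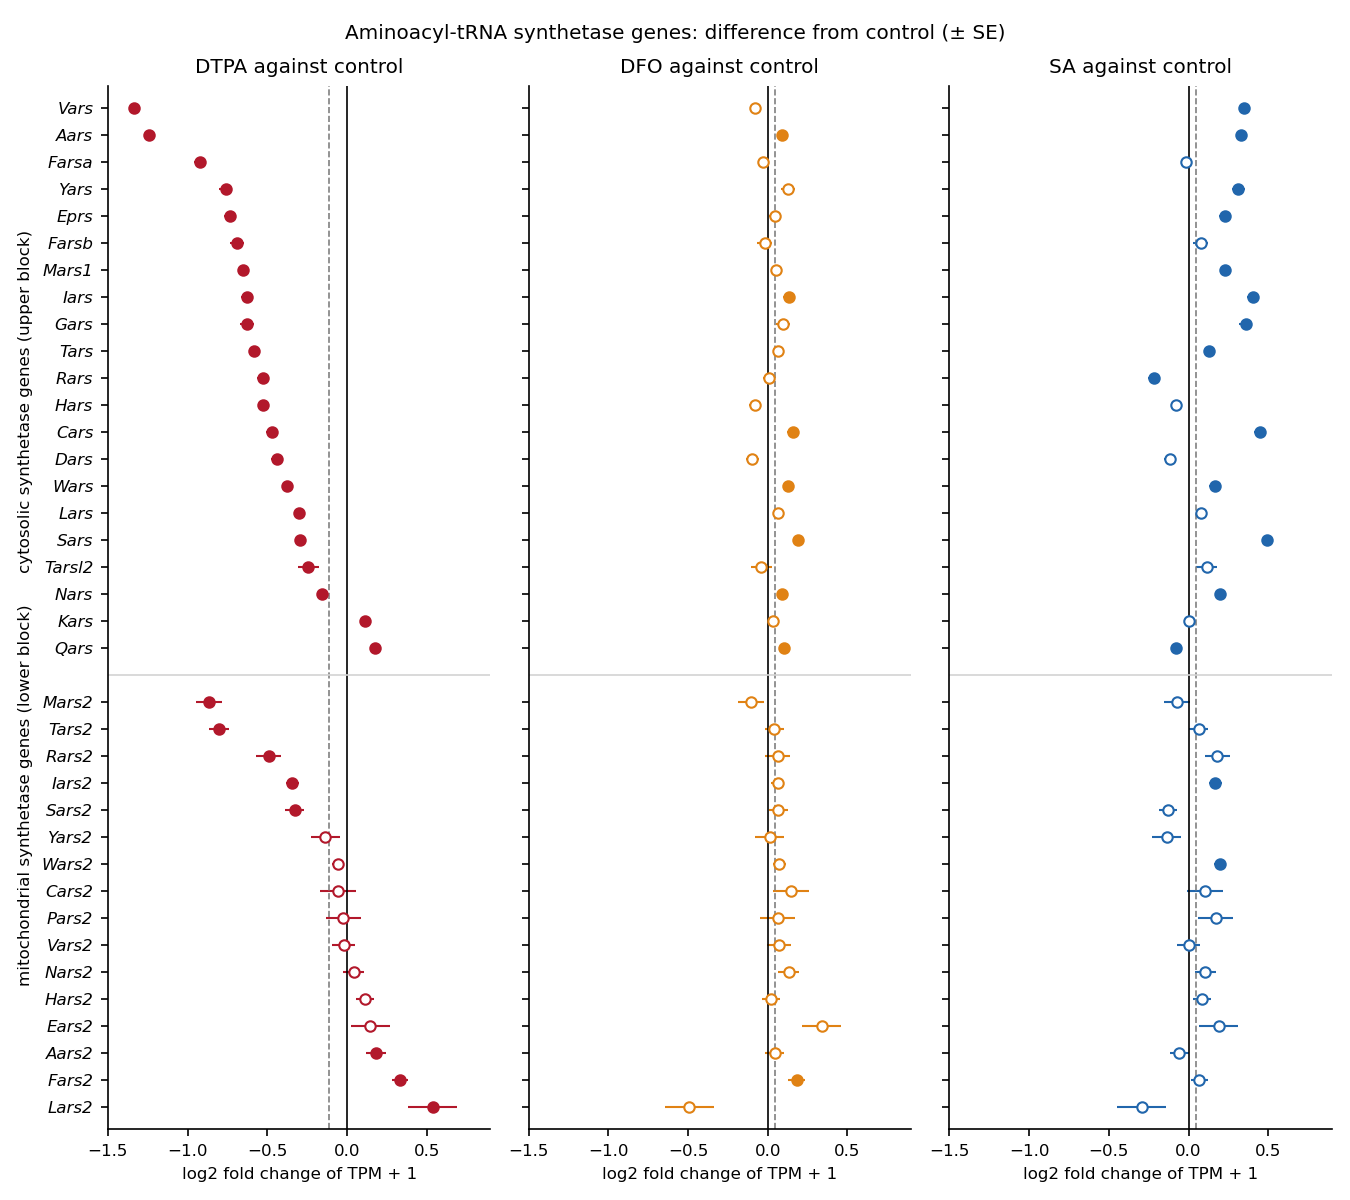
Log2 fold change (x axis, TPM + 1, ± SE) of 37 of the 38 synthetase genes (y axis) with DTPA, DFO and SA against control; filled points passed the test, the dashed line is the median of all 11917 tested genes. With DTPA the cytosolic genes other than Qars and Kars lie left of 0, and with SA 12 filled cytosolic points lie right of it.

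Low zinc was compared with control first. With DTPA, 19 of the 21 cytosolic synthetase genes fell and the other 2, Qars and Kars, rose. Over all tested genes 42.1% were called lower and 23.5% higher in this comparison, so that falls were common throughout, but the cytosolic share called lower was 90.5%. The median log2 fold change of the cytosolic genes was -0.53, beside -0.11 for all tested genes. In bulk RNA, fewer cells of a kind and less RNA per cell cannot be told apart. Median-of-ratios scaling raised the all-gene median by 0.13, and under it 17 cytosolic genes fell and 2 rose, Nars and Tarsl2 no longer passing (adjusted p = 0.328 and 0.112 by limma).

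The steepest falls were those of Vars and Aars. Vars, on chr17:35000987-35016322, encodes the valine enzyme, and its level was 47.0, 43.7 and 44.1 TPM with DTPA, 109, 108 and 107 TPM with DFO, 145, 149 and 145 TPM with SA, and 116, 115 and 113 TPM in control. The DTPA libraries lay at less than 50 TPM and all others above 100 TPM, with SA highest. The difference of DTPA from control was -1.33 on the log2 scale (SE 0.0283, adjusted p = 4.38e-12 by limma). Aars, on chr8:111033144-111057664, stood at 115, 118 and 112 TPM with DTPA, 288, 295 and 289 TPM with DFO, 342, 345 and 345 TPM with SA, and 277, 266 and 276 TPM in control. Again the DTPA libraries were far below, and the SA libraries above, every other library. Its difference with DTPA was -1.24 on the log2 scale (SE 0.0232, adjusted p = 1.57e-12 by limma).

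Farsa and Farsb encode the α and β subunits of a single enzyme, the cytosolic phenylalanine synthetase, and fell together. Farsa was at 84.9, 80.5 and 81.1 TPM with DTPA, 151, 159 and 151 TPM with DFO, 156, 158 and 152 TPM with SA, and 162, 153 and 155 TPM in control. Farsb was at 59.7, 62.6 and 56.0 TPM with DTPA, 95.2, 95.9 and 94.4 TPM with DFO, 101, 98.9 and 105 TPM with SA, and 102, 91.1 and 96.5 TPM in control. For both subunits the DTPA libraries lay below all others, and the DFO and SA ranges each overlapped the control range. The differences with DTPA were -0.92 on the log2 scale (SE 0.0316, adjusted p = 2.36e-10 by limma) for Farsa and -0.69 on the log2 scale (SE 0.0455, adjusted p = 7.44e-08 by limma) for Farsb.

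Yars (tyrosine) and Eprs, whose product carries both the glutamate and the proline activity, followed. Yars stood at 30.8, 33.8 and 34.0 TPM with DTPA, 61.0, 63.4 and 60.4 TPM with DFO, 69.8, 70.7 and 69.8 TPM with SA, and 57.5, 53.6 and 57.8 TPM in control. Eprs stood at 18.6, 18.3 and 19.4 TPM with DTPA, 32.9, 33.8 and 32.3 TPM with DFO, 37.4, 36.6 and 38.4 TPM with SA, and 32.6, 30.9 and 32.2 TPM in control. In each the order of group means was SA, DFO, control and DTPA from high to low, with DTPA set apart from the rest. The DTPA difference was -0.76 on the log2 scale (SE 0.0418, adjusted p = 1.47e-08 by limma) for Yars and -0.74 on the log2 scale (SE 0.0350, adjusted p = 4.17e-09 by limma) for Eprs. The other called falls lay between -0.65 for Mars1 (methionine) and -0.15 for Nars.

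**Figure D2:**
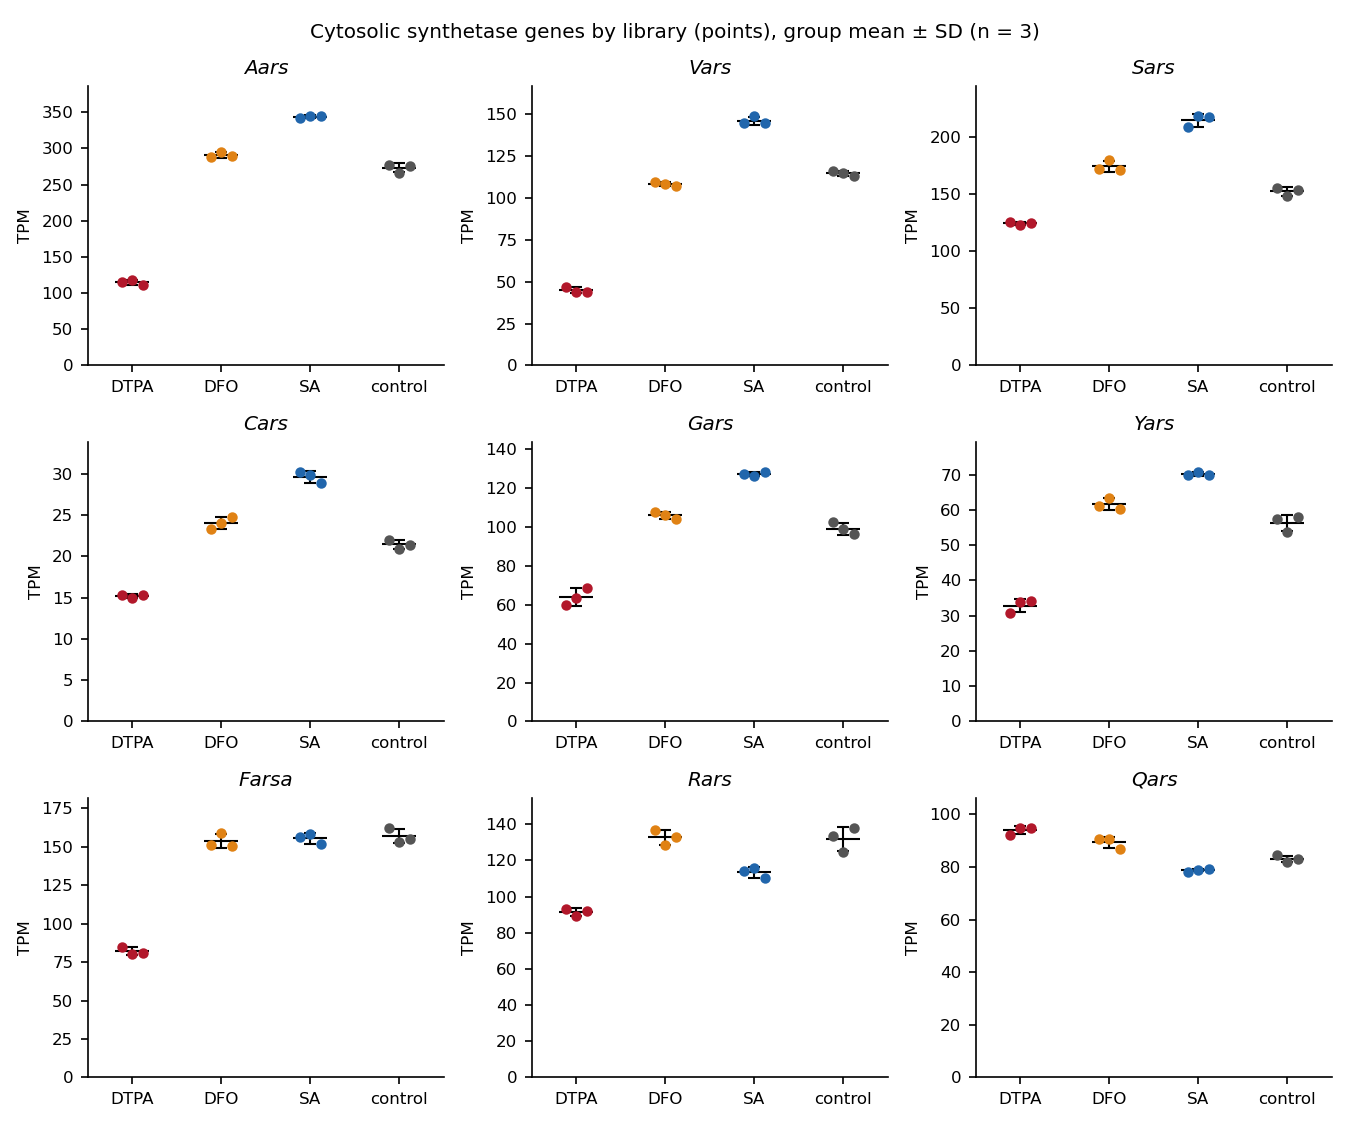
TPM (y axis, from 0) of 9 cytosolic synthetase genes in each library (points) with the group mean ± SD (n = 3), for DTPA, DFO, SA and control. Vars and Aars are lowest with DTPA and highest with SA, Farsa is low with DTPA alone, and Qars is highest with DTPA.

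Threonine has a pair of cytosolic genes. Tars, the main one, was at 64.9, 69.9 and 67.6 TPM with DTPA, 108, 105 and 105 TPM with DFO, 110.1, 113 and 110.0 TPM with SA, and 100.5, 100.4 and 103 TPM in control, and the DTPA libraries lay below all others. Tarsl2 was far lower, at 9.29, 9.92 and 10.1 TPM with DTPA, 11.2, 11.1 and 11.8 TPM with DFO, 13.4, 12.1 and 12.8 TPM with SA, and 13.1, 11.0 and 11.2 TPM in control. Tars differed with DTPA by -0.58 on the log2 scale (SE 0.0284, adjusted p = 5.10e-09 by limma), and Tarsl2 by -0.24 on the log2 scale (SE 0.0673, adjusted p = 0.00762 by limma), a call that was lost under the other scaling.

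Glycine and lysine each rely on 1 gene for both compartments, and these genes went opposite ways. Gars stood at 59.6, 63.5 and 68.6 TPM with DTPA, 108, 106 and 104 TPM with DFO, 127, 126 and 128 TPM with SA, and 102, 98.6 and 96.1 TPM in control, with DTPA libraries lowest and SA libraries highest. Kars stood at 110.4, 109 and 106 TPM with DTPA, 99.9, 105 and 103 TPM with DFO, 101, 100.5 and 100.0 TPM with SA, and 103, 96.4 and 102 TPM in control, with all DTPA libraries above all control libraries by a small margin. The DTPA difference was -0.63 on the log2 scale (SE 0.0427, adjusted p = 1.01e-07 by limma) for Gars and 0.11 on the log2 scale (SE 0.0285, adjusted p = 0.00390 by limma) for Kars. The remaining rise was in Qars (glutamine), on chr9:108507706-108515941, at 92.3, 94.8 and 94.8 TPM with DTPA, 90.5, 90.6 and 87.0 TPM with DFO, 78.2, 78.9 and 79.2 TPM with SA, and 84.4, 81.9 and 83.0 TPM in control. DTPA and DFO libraries lay above control and SA libraries below it. Its DTPA difference was 0.18 on the log2 scale (SE 0.0232, adjusted p = 3.43e-05 by limma). Under median-of-ratios scaling these rises were larger, at 0.31 for Qars and 0.25 for Kars.

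Mitochondrial genes moved less and in both directions. With DTPA 5 of 17 fell (Iars2, Mars2, Rars2, Sars2 and Tars2), 3 rose (Aars2, Fars2 and Lars2) and 9 did not pass, with a median log2 fold change of -0.055. Under median-of-ratios scaling the median was 0.068 and the split was 5 lower and 5 higher, Hars2 and Nars2 joining the rises, so that the set had no one direction. The share called lower, 29.4%, was below that of all genes. Ears2, Cars2 and Pars2, which did not pass, had SEs of 0.121, 0.113 and 0.110. The cytosolic Nars, called at -0.15, had an SE of 0.0220, so small changes of these low members were harder to call.

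The largest falls were in Mars2 and Tars2, the mitochondrial methionine and threonine enzymes. Mars2, on chr1:55237177-55248470, was at 1.60, 1.74 and 1.66 TPM with DTPA, 3.64, 3.53 and 3.36 TPM with DFO, 3.89, 3.50 and 3.49 TPM with SA, and 4.10, 3.59 and 3.89 TPM in control. Tars2, on chr3:95739976-95760206, was at 7.52, 6.40 and 6.82 TPM with DTPA, 13.1, 12.5 and 14.0 TPM with DFO, 12.9, 13.9 and 13.4 TPM with SA, and 12.8, 12.6 and 13.0 TPM in control. In both genes the DTPA libraries lay below all 9 others, which overlapped. The differences were -0.86 on the log2 scale (SE 0.0814, adjusted p = 1.82e-06 by limma) for Mars2, which rested on 129 to 336 reads a library, and -0.80 on the log2 scale (SE 0.0599, adjusted p = 2.28e-07 by limma) for Tars2. At the low level of Mars2 the value depended on the pseudocount, being -0.41 with a pseudocount of 5 (adjusted p = 3.22e-06 by limma), and its mean level with DTPA was 0.432 times that in control. Among the rises Fars2 (phenylalanine) was at 22.2, 21.0 and 21.2 TPM with DTPA, 18.5, 20.2 and 18.8 TPM with DFO, 17.0, 18.4 and 17.5 TPM with SA, and 16.4, 17.9 and 16.1 TPM in control, with the DTPA libraries above the rest, a difference of 0.33 on the log2 scale (SE 0.0510, adjusted p = 0.000112 by limma). The small rise of Aars2 (log2 fold change 0.18, adjusted p = 0.0199 by limma) no longer passed without DTPA replicate 1, DTPA replicate 2 or control replicate 2, where the highest adjusted p was 0.0791.

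**Figure D3:**
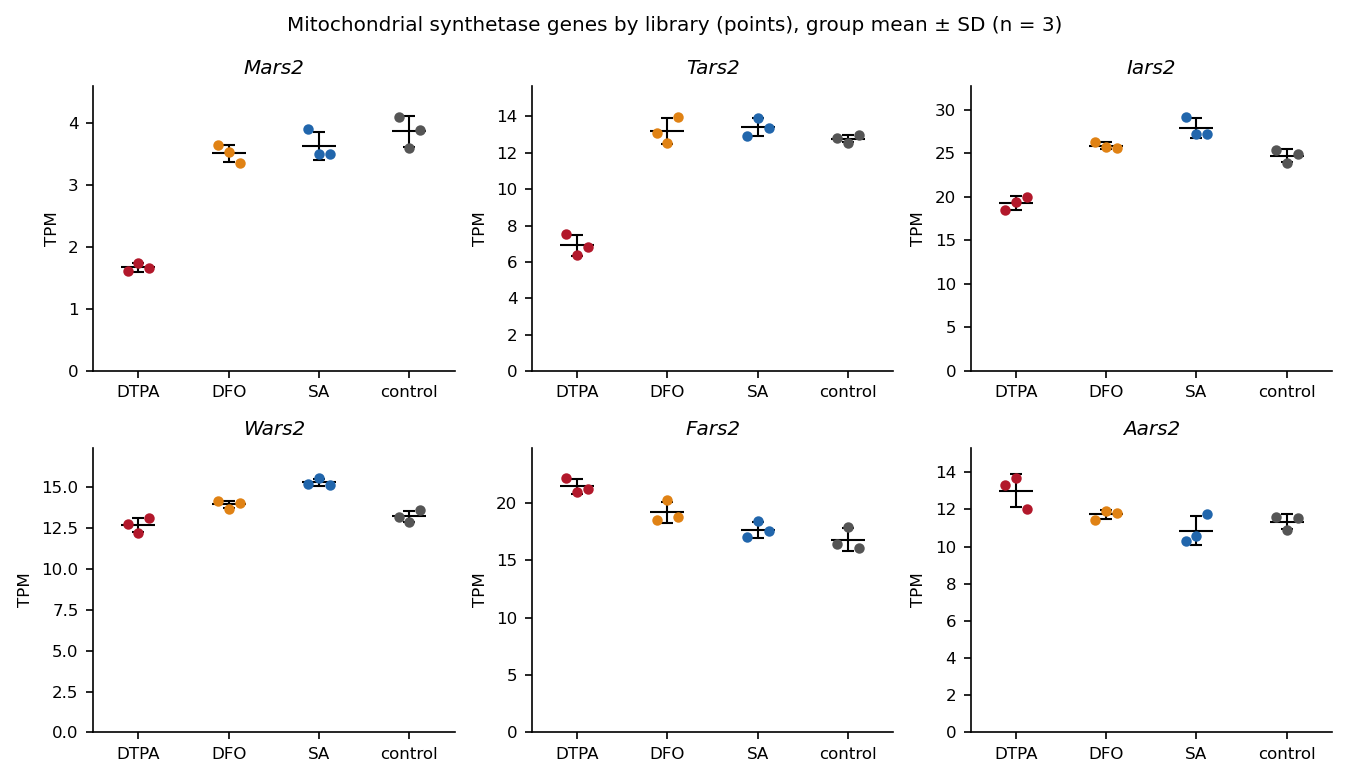
TPM (y axis, from 0) of 6 mitochondrial synthetase genes in each library (points) with the group mean ± SD (n = 3), for DTPA, DFO, SA and control. Mars2, Tars2 and Iars2 are lowest with DTPA, Wars2 is highest with SA, and Fars2 and Aars2 are highest with DTPA.

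The SA comparison asked what inhibition of ALAD, and so a shortage of protoporphyrin, did to the same genes. Of the 21 cytosolic genes 12 rose, 2 fell (Rars and Qars) and 7 did not pass. Over all tested genes 15.4% were called higher and 6.75% lower, beside 57.1% and 9.52% of the cytosolic set. The median log2 fold change was 0.17, beside 0.047 for all genes. Under median-of-ratios scaling 11 rose and 4 fell, as Tars no longer passed (adjusted p = 0.0595 by limma) and Dars and Hars joined Rars and Qars. All 12 genes that rose with SA were among the 19 that fell with DTPA. As 19 of the 21 cytosolic genes fell with DTPA, this overlap was nearly set in advance. It does not link the SA rises to the DTPA falls.

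Sars (serine), on chr3:108424865-108445209, had the largest rise. It was at 126, 123 and 125 TPM with DTPA, 172, 180.4 and 171 TPM with DFO, 209, 219 and 218 TPM with SA, and 156, 148 and 154 TPM in control. Each of the 4 groups held its own range, in the order DTPA, control, DFO and SA from low to high. Its SA difference was 0.49 on the log2 scale (SE 0.0275, adjusted p = 6.79e-07 by limma). Cars, on chr7:143557230-143600090, showed the same order, at 15.3, 14.9 and 15.3 TPM with DTPA, 23.3, 24.1 and 24.7 TPM with DFO, 30.2, 29.9 and 28.9 TPM with SA, and 22.0, 20.9 and 21.4 TPM in control, with an SA difference of 0.45 on the log2 scale (SE 0.0353, adjusted p = 6.89e-06 by limma).

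Iars, for the isoleucine enzyme, was at 46.5, 45.2 and 45.5 TPM with DTPA, 81.1, 75.1 and 77.9 TPM with DFO, 95.1, 91.2 and 96.8 TPM with SA, and 72.4, 68.5 and 72.6 TPM in control. The SA libraries were again highest and the DTPA libraries lowest. The differences with SA were 0.40 on the log2 scale (SE 0.0349, adjusted p = 1.31e-05 by limma) for Iars, 0.36 on the log2 scale (SE 0.0427, adjusted p = 0.000143 by limma) for Gars and 0.35 on the log2 scale (SE 0.0283, adjusted p = 8.78e-06 by limma) for Vars. In Eprs the SA difference was 0.23 on the log2 scale (SE 0.0350, adjusted p = 0.000895 by limma), and in Tars 0.13 on the log2 scale (SE 0.0284, adjusted p = 0.00768 by limma). The other cytosolic rises, in Aars, Yars, Mars1, Nars and Wars, lay between 0.17 and 0.33.

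Several genes were not called higher with SA. Farsa, Farsb, Kars and Tarsl2 did not pass, at log2 fold changes of -0.013, 0.075, 0.0033 and 0.11. Nor did Dars (aspartate), Hars or Lars (leucine). Dars and Lars lay near the threshold, at -0.12 (adjusted p = 0.0516 by limma) and 0.081 (adjusted p = 0.0608 by limma). All SA libraries of Lars were above its control libraries. Rars, for the arginine enzyme, was lower with SA, at 92.9, 89.0 and 92.2 TPM with DTPA, 137, 128 and 133 TPM with DFO, 114, 116 and 110.2 TPM with SA, and 133, 125 and 138 TPM in control. Its SA libraries lay below all control and DFO libraries and above all DTPA libraries, with a difference from control of -0.22 on the log2 scale (SE 0.0376, adjusted p = 0.00174 by limma). The fall of Qars was small, -0.076 on the log2 scale (SE 0.0232, adjusted p = 0.0361 by limma), and no longer passed when any SA library, control replicate 1 or control replicate 3 was left out (highest adjusted p = 0.112). Neither gene followed the larger cytosolic group.

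Among mitochondrial genes 2 of 17 rose with SA, 15 did not pass and none was called lower by limma, while 1 was lower at an unadjusted p under 0.05 and 1 by limma's voom on recovered reads. The share called higher, 11.8%, was below the 15.4% of all tested genes, so the set as a whole did not stand out. Wars2, the mitochondrial tryptophan enzyme on chr3:99141068-99239186, was at 12.8, 12.2 and 13.1 TPM with DTPA, 14.1, 13.7 and 14.0 TPM with DFO, 15.2, 15.6 and 15.1 TPM with SA, and 13.2, 12.9 and 13.6 TPM in control. Its SA libraries lay above all others, a difference of 0.20 on the log2 scale (SE 0.0399, adjusted p = 0.00465 by limma). Iars2, for isoleucine, on chr1:185284726-185329396, was at 18.5, 19.4 and 20.0 TPM with DTPA, 26.4, 25.7 and 25.6 TPM with DFO, 29.2, 27.3 and 27.2 TPM with SA, and 25.4, 23.9 and 25.0 TPM in control. Its SA libraries were above control and its DTPA libraries below, with an SA difference of 0.17 on the log2 scale (SE 0.0415, adjusted p = 0.0146 by limma) and a DTPA difference of -0.34 on the log2 scale (SE 0.0415, adjusted p = 1.67e-05 by limma). The SA call of Iars2 was lost without SA replicate 1, without control replicate 2 and under median-of-ratios scaling (highest adjusted p = 0.0584), and 22.9% of its exon bases lie opposite those of Rab3gap2.

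Fewest synthetase genes were called under low iron. With DFO 7 of 21 cytosolic genes rose (Aars, Cars, Iars, Nars, Qars, Sars and Wars), none fell and 14 did not pass, beside 8.39% called higher and 2.28% called lower among all genes. The median was 0.063 for the cytosolic genes and 0.045 for all genes. This split depended on the scaling, since median-of-ratios scaling called 1 gene higher (Sars) and 3 lower (Dars, Hars and Vars). At an unadjusted p under 0.05, 11 were higher and 3 lower, and voom on recovered reads called 8 higher and 3 lower. It also depended on single libraries. The count of rises was 2 without DFO replicate 1, 3 without DFO replicate 2 or 3, and 1 without control replicate 2 or 3, where Hars was called lower without control replicate 2.

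Sars was the one rise that passed under every alternative, with a DFO difference of 0.19 on the log2 scale (SE 0.0275, adjusted p = 0.00158 by limma). Cars differed by 0.16 on the log2 scale (SE 0.0353, adjusted p = 0.0175 by limma) and Iars by 0.13 on the log2 scale (SE 0.0349, adjusted p = 0.0361 by limma). Wars was at 136, 142 and 137 TPM with DTPA, 201, 202 and 187 TPM with DFO, 195, 208 and 202 TPM with SA, and 185, 179 and 175 TPM in control, and its DFO libraries lay just above the control range, a difference of 0.13 on the log2 scale (SE 0.0361, adjusted p = 0.0432 by limma). Qars differed by 0.10 on the log2 scale (SE 0.0232, adjusted p = 0.0168 by limma), in the opposite direction to its SA difference. Gars, Kars, Farsa, Farsb, Eprs, Tars and Tarsl2 did not pass with DFO, their log2 fold changes lying between -0.039 and 0.097. Of the mitochondrial genes 1 of 17 was called higher (5.88%, beside 8.39% of all genes), Fars2, at 0.18 on the log2 scale (SE 0.0510, adjusted p = 0.0457 by limma). That call was lost without any DFO library, without control replicate 1 or 3, and with voom, no filter, the other scaling or a fit of 6 libraries (highest adjusted p = 0.203). None of the 17 was called lower by limma, 1 was lower at an unadjusted p under 0.05 and 1 by voom.

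The treatments were also set against each other directly. DTPA against SA gave the widest contrast, with 19 cytosolic genes lower and 2 higher (all genes 47.0% lower and 20.1% higher) and a median of -0.77. The log2 difference of DTPA from SA was -1.68 for Vars and -1.57 for Aars (adjusted p = 7.17e-13 and 2.58e-13 by limma). DTPA against DFO gave the same counts, 19 lower and 2 higher (all genes 46.4% lower and 19.6% higher), with 18 lower under median-of-ratios scaling. The 2 higher genes were Kars and Qars in both, and their calls against DFO were each lost without some single libraries: Kars without DTPA replicate 1, DTPA replicate 2 or DFO replicate 1, and Qars without DTPA replicate 2, DTPA replicate 3 or DFO replicate 3. DFO and SA differed in 12 of the 21 cytosolic genes, 10 lower with DFO and 2 higher (Qars and Rars), beside 6.30% lower and 7.22% higher among all genes. Vars showed the largest of these, at -0.43 (adjusted p = 4.69e-06 by limma), followed by Sars at -0.30 (adjusted p = 4.63e-05 by limma). For mitochondrial genes DTPA against SA called 6 lower and 3 higher, and 4 lower and 5 higher under median-of-ratios scaling. DTPA against DFO called 6 lower and 2 higher (Fars2 and Lars2), and 5 and 5 under that scaling. The Fars2 call in it was lost without DTPA replicate 1, DFO replicate 1 or DFO replicate 3. DFO against SA called 1 mitochondrial gene higher (Sars2, adjusted p = 0.0434 by limma), and that call was lost without DFO replicate 1, DFO replicate 2 or any SA library. None was called lower in it by limma, 2 were lower at an unadjusted p under 0.05, and 1 was lower by voom.

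Sorted by structure, the cytosolic falls with DTPA crossed both catalytic folds. They covered 9 of 10 class I genes and 10 of 11 class II genes, counting Eprs under class I. With SA, 7 of 10 class I genes rose and 2 fell, and 5 of 11 class II genes rose and 6 did not pass. Of the 8 enzymes of the multi-synthetase complex, 6 fell and 2 rose with DTPA, and with SA 3 rose, 2 fell and 3 did not pass. Outside the complex 13 of 13 genes fell with DTPA, and with SA 9 rose and 4 did not pass. Beside these counts, 42.1% of all tested genes were called lower and 23.5% higher with DTPA. With SA 15.4% were called higher and 6.75% lower. Part of the class II and complex counts depended on the scaling. After division by the median-of-ratios factors, the DTPA falls of Nars and Tarsl2, class II genes outside the complex, were no longer called. The 6 complex genes that fell with DTPA were still called lower. In the SA comparison the rise of Tars (class II, outside) was lost. Hars (class II, outside) and Dars (class II, inside) were then called lower with SA. Whether genes inside and outside the complex differ was not tested.

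Comparing the cytosolic with the mitochondrial gene for the same amino acid within a library removes the scaling of that library. There were 16 such pairs compared, with Farsa and Farsb averaged and Eprs set against both Ears2 and Pars2. With DTPA the mean log2 ratio was below control in 13 pairs and above in 3. In 12 pairs all DTPA libraries lay below all control libraries. The median shift over the 16 pairs was -0.52. How often the ranges of other gene pairs part in this way was not counted for any treatment. Among all tested genes 42.1% were called lower and 23.5% higher with DTPA. For alanine the cytosolic gene exceeded the mitochondrial one 8.83-fold with DTPA and 24.1-fold in control, a log2 shift of -1.45 (exact permutation test, two-sided p = 0.1, n = 3 each, the smallest that 3 against 3 can give). For valine the excess was 7.35-fold with DTPA and 18.5-fold in control. Methionine went the other way, at 39.9-fold with DTPA and 27.2-fold in control, since Mars2 fell further than Mars1.

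With SA the ratio was above control in 11 of 16 pairs and below in 5. In 8 pairs all SA libraries lay above all control libraries, and in 1 pair, arginine, all lay below. Serine shifted most, at 10.8-fold with SA and 6.98-fold in control (log2 shift 0.63). With DFO 8 pairs were below and 8 above, with a median shift of -0.0013. Leucine was the only pair in which the mitochondrial gene was the higher one. That gene is Lars2, and the part of rRNA reads in its level was not tested. The leucine pair is included in the counts and medians of pairs for all treatments.

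**Figure D4:**
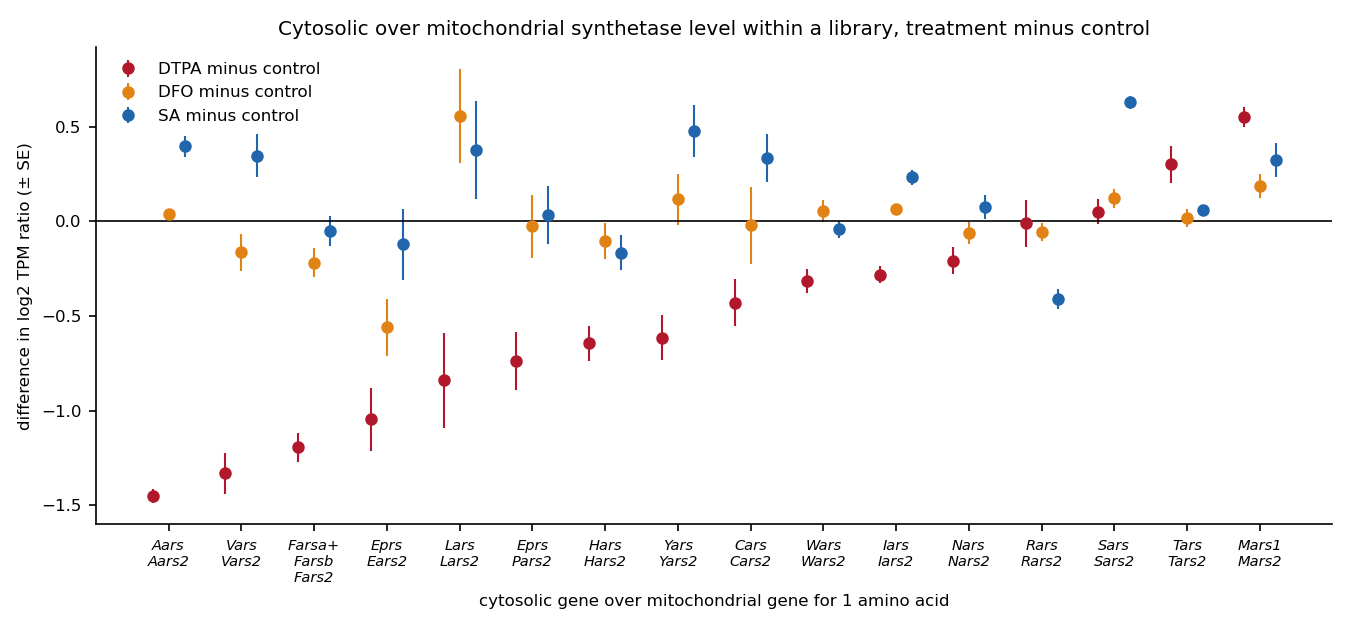
Difference in the log2 ratio of cytosolic over mitochondrial TPM (y axis, treatment minus control, ± SE from the SDs of both groups, n = 3 each) for 16 amino acid pairs (x axis). The DTPA points run from -1.45 for alanine to 0.55 for methionine, and the SA points are highest for serine.

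Lars2, for the mitochondrial leucine enzyme, on chr9:123366927-123462666, stood apart from the other mitochondrial genes. Its level was 779, 775 and 697 TPM with DTPA, 354, 377 and 369.6 TPM with DFO, 422, 458 and 385 TPM with SA, and 373, 598 and 616 TPM in control, where the other 16 reached at most 29.2 TPM. The control libraries split, replicate 1 lying at the level of DFO and the other 2 between SA and DTPA. The difference with DTPA was 0.54 on the log2 scale (SE 0.153, adjusted p = 0.00871 by limma), and without control replicate 1 it was 0.30 (adjusted p = 0.00274 by limma). With DFO it was -0.49 (adjusted p = 0.0646 by limma) and with SA -0.29 (adjusted p = 0.205 by limma), but without control replicate 1 both passed, at -0.73 (adjusted p = 0.000391 by limma) and -0.53 (adjusted p = 0.000525 by limma).

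An annotated rRNA gene, CT010467.1 on chr17:39846353-39848827, was examined beside Lars2 after its values had been seen. It stood at 7297, 6313 and 6022 TPM with DTPA, 3176, 3355 and 3264 TPM with DFO, 3916, 4156 and 3364 TPM with SA, and 4218, 7371 and 5559 TPM in control. Control replicate 1 was the lowest control library for both genes, and DFO the lowest group. Gm15564, an antisense gene on chr16:35966752-35983230 that shares an identical run of 52 bases with Lars2 exons, stood at 30.5, 31.9 and 31.2 TPM with DTPA, 16.9, 17.5 and 14.0 TPM with DFO, 16.9, 19.8 and 18.3 TPM with SA, and 13.6, 28.5 and 23.3 TPM in control. The mitochondrial rRNA genes did not share the split of the control libraries. mt-Rnr1 stood at 3676, 3646 and 3887 TPM with DTPA, 1738, 1669 and 1712 TPM with DFO, 1624, 1568 and 1642 TPM with SA, and 1461, 1426 and 1344 TPM in control. mt-Rnr2 stood at 2128, 2119 and 2346 TPM with DTPA, 919, 902 and 957 TPM with DFO, 903, 847 and 923 TPM with SA, and 833, 853 and 772 TPM in control. In both, DTPA was highest, as for Lars2, but control replicate 1 was not the lowest control library and DFO was not the lowest group. No identical run of 20 bases or more was found between Lars2 exons and CT010467.1. The part of rRNA reads in the Lars2 level was not tested, and Lars2 was left out of the mitochondrial sums above. It was kept in the counts of called genes and in the leucine pair.

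**Figure D5:**
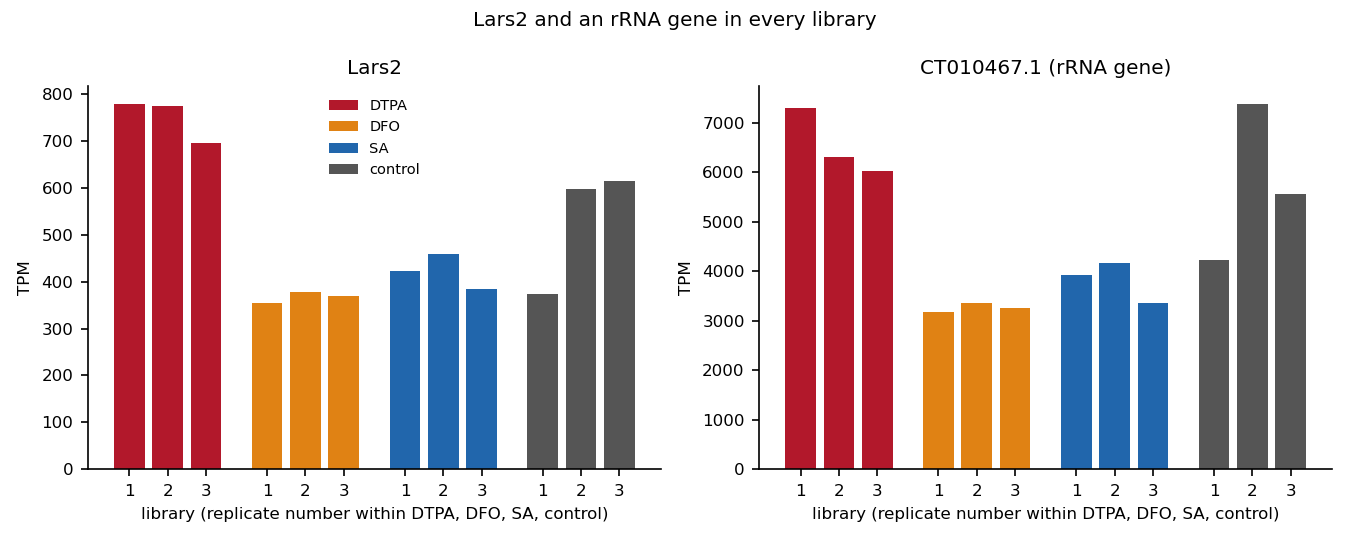
TPM (y axis, from 0) of Lars2 (left) and of the rRNA gene CT010467.1 (right) in each of the 12 libraries (x axis), coloured by group. In both panels the DFO bars are low and control replicate 1 lies below the other control libraries.

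The genes that work with the synthetases were described as set lists. The complex scaffold genes Aimp1, Aimp2 and Eef1e1 all fell with DTPA, at log2 fold changes of -0.18, -0.097 and -0.52, though under median-of-ratios scaling Eef1e1 alone passed (-0.41). With SA, Aimp1 rose (0.19) and Aimp2 fell (-0.17), and with DFO none of the 3 passed (adjusted p from 0.0973 to 0.149 by limma, all 3 under 0.05 unadjusted), while Aimp2 was lower under the other scaling (-0.12). Of 7 genes that modify charged or special transfer RNAs, 3 fell with DTPA and 1 rose, a share near the 42.1% called lower among all genes, and under median-of-ratios scaling 2 fell and 2 rose. The falls were Gatb, Gatc and Qrsl1, the subunits of the mitochondrial glutamyl-tRNA amidotransferase, which makes the glutamine form for which mitochondria have no synthetase of their own. Qrsl1 no longer passed under median-of-ratios scaling (adjusted p = 0.0667 by limma). Gatc stood at 86.9 ± 2.36 TPM with DTPA, 148 ± 6.65 TPM with DFO, 138 ± 3.66 TPM with SA and 133 ± 1.55 TPM in control (SD, n = 3). The rise was Sephs2, which makes the selenium donor for selenocysteine transfer RNA, and it was called higher in all 3 treatments (0.41 with DTPA, 0.18 with DFO and 0.20 with SA). Of the editing and transfer RNA end genes, the 3 tested (Dtd1, Dtd2 and Trnt1) all fell with DTPA, where 42.1% of all genes were called lower.

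Atf4 and its other targets were compared on the same fit. Atf4 RNA was at 101 ± 2.00 TPM with DTPA, 122 ± 2.15 TPM with DFO, 149 ± 3.71 TPM with SA and 99.9 ± 4.43 TPM in control. Its log2 fold change was 0.014 with DTPA (adjusted p = 0.733 by limma), 0.28 with DFO (adjusted p = 0.000393) and 0.58 with SA (adjusted p = 6.79e-07). Under median-of-ratios scaling the DTPA value was 0.15 and passed (adjusted p = 0.00179 by limma). Of 31 listed ATF4 targets that are not synthetases, 20 were tested. With DTPA 16 fell, 2 rose and 2 did not pass, with a median of -0.51, beside 42.1% called lower and 23.5% called higher among all genes, and with median-of-ratios scaling 13 fell and 2 rose. With DFO 12 rose and 8 did not pass (median 0.20, 8.39% of all genes called higher), against 10 higher and 1 lower under that scaling. With SA 16 rose and 4 did not pass (median 0.47, 15.4% of all genes called higher), and under that scaling again 16 rose. The cytosolic synthetase medians were -0.53, 0.063 and 0.17 in the same order of treatments. These comparisons share their control libraries. Asns, for asparagine synthetase, was at 204 ± 1.32 TPM with DTPA, 450 ± 9.49 TPM with DFO, 494 ± 6.32 TPM with SA and 423 ± 4.66 TPM in control, the same order as Aars, Sars and Cars. The kinase genes Eif2ak4 and Eif2ak1 fell with DTPA by 0.68 and 0.18 on the log2 scale, and Eif2ak1 fell by 0.074 with SA. Under median-of-ratios scaling Eif2ak1 did not pass with DTPA (adjusted p = 0.0536 by limma), and both kinase genes were lower with SA. Eif2ak1 was then also lower with DFO (-0.082, adjusted p = 0.0204 by limma).

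The motif matches can be set beside these values. All 5 cytosolic genes with TGATGNAA were among the 8 SA risers with a promoter in the table, and 0 of the 6 other cytosolic genes with a promoter held it. This complete split depended on the scaling. Tars, which holds a match, lost its SA call under median-of-ratios scaling (log2 fold change 0.071, adjusted p = 0.0595 by limma). Sars, Eprs and Mars1 rose with SA and had no match in the window. The 5 genes with a match were also lower with DTPA, as were genes without one. Some symbols share exon bases with a neighbour on the opposite strand, and whether reads were counted by strand is not given in the sources used here. Mars1 shares 68 bases (1.99% of its exons) with Ddit3, an ATF4 target at up to 553 TPM, and Fars2 shares 115 bases with Lyrm4. Ears2 shares 89 bases with Ubfd1, at up to 22 TPM. On the same strand, 14.3% of Aars exon bases are annotated to Exosc6 as well, and Exosc6 is listed at 0 in every library. Tarsl2 shares 120 same-strand bases (1.78% of its exons) with Tm2d3, at up to 45.2 TPM. The part of such reads in these levels was not tested.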

How the data were processed

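RNA from 12 cultures was made into strand-specific mRNA libraries, per the labels' protocols. Trimmomatic 0.33, FastQC, HISAT2 2.1.0, featureCounts and edgeR were used by the authors on mouse build mm10, per the submitters' processing notes. Their settings and the annotation release were not stated. For each library the authors deposited TPM values beside gene symbols, 55487 rows in all. Of these, 234 rows carried 1 of 114 repeated symbols, and the copy with the highest mean was kept. TPM multiplied by GENCODE M21 exon length gave whole reads (within 0.1 read) for 98.8% to 99.0% of values up to 200 reads, and these recovered reads served only for depth and for an alternative fit. Mars1 was read as Mars in that annotation.

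Values were taken as log2(TPM + 1), a scale that understates changes of genes near 1 TPM. In limma 3.58.1 (R 4.3.3) each group's mean was estimated from its own libraries. The spread was estimated from all 12 libraries together, with a mean-variance trend. Benjamini-Hochberg adjustment ran over the 11917 tested genes, with 0.05 as threshold. "Rose", "fell" and "called" refer to it. Tables and plots used Python 3.11.15, numpy 2.4.6, pandas 2.3.3, scipy 1.17.1 and matplotlib 3.10.9. On simulated data with 200 changed genes the DTPA comparison recovered 62% of 50 genes at 1.2-fold and 94% at 1.5-fold. The changed genes were drawn from those above 5 TPM in control. In the data themselves 2796 genes were called higher and 5014 lower with DTPA. The recovered shares therefore hold for the simulated setting and not for members at lower levels. No 2 libraries held identical values, and replicates differed beyond sampling noise in every pair. The labels call replicates biological, so p-values measure the spread between them.

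Members, lists, motifs and tests were chosen with earlier results of these data known. Genes with full values were the 5 cytosolic and 3 mitochondrial called genes with the largest change per treatment, and always Gars, Kars, Farsa, Farsb, Eprs, Tars and Tarsl2; Rars and Aars2 were added after their values were seen. The values of 1 mitochondrial gene and its pair are not reported here, though counts, sums and medians over the set include it. Settings varied were the scaling (median of ratios), the pseudocount (0.1 and 5), the filter (none and 5 TPM), a fit of only the 6 libraries compared, voom on recovered reads (at least 10 reads in 3 libraries), the replicate number as a block, and each library left out.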

Additional observations from a re-analysis of the deposited data

How the results depend on the processing

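Counts of called synthetase genes are given against the value reported. Replicate numbers did not pair libraries (correlations of same-numbered libraries between -0.043 and 0.054), and with the replicate block 2 counts moved, DFO against SA, mitochondrial higher (0, reported 1) and DFO against control, cytosolic higher (6, reported 7, Aars lost). With SA the block lost the Qars fall and gained one in Dars. Under median-of-ratios scaling mitochondrial genes higher with DTPA were 5 against control, against DFO and against SA. That scaling gave 1 cytosolic gene higher and 3 lower with DFO, no mitochondrial gene higher with DFO, and with SA 4 cytosolic lower, 1 mitochondrial higher and 1 mitochondrial lower. With voom on recovered reads 3 cytosolic genes were lower and 1 mitochondrial lower with DFO, with no mitochondrial gene higher (0); 4 cytosolic and 1 mitochondrial were lower with SA; 4 mitochondrial were higher for DTPA against DFO; and 1 was lower for DFO against SA. Without a filter 4 cytosolic and 0 mitochondrial genes were higher with DFO, and 0 mitochondrial were higher for DFO against SA. With a filter of 5 TPM 1 mitochondrial gene was lower with DFO. A fit of the 6 libraries compared gave 1 cytosolic and 0 mitochondrial higher with DFO, 1 cytosolic lower with SA, and 0 mitochondrial higher for DFO against SA.

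Leaving out each library gave ranges of 19 to 19 cytosolic lower and 2 to 2 higher, and 5 to 5 mitochondrial lower and 2 to 3 higher, with DTPA. With DFO they were 1 to 6 cytosolic higher and 0 to 1 lower, and 0 to 1 mitochondrial higher and 0 to 1 lower. With SA they were 12 to 13 cytosolic higher and 1 to 3 lower, and 1 to 3 mitochondrial higher and 0 to 1 lower. For DTPA against DFO they were 0 to 2 cytosolic higher and 1 to 3 mitochondrial higher, and for DFO against SA 0 to 1 mitochondrial higher. The cause of these shifts was not tested. Among called synthetase differences, Wars2 for DTPA against DFO changed sign (-0.13, and 0.048 under median-of-ratios scaling, adjusted p = 0.319 by limma). Depth limits Ears2 most, at 33 reads in its lowest library.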
